A study of Rattus norvegicus with 15 samples.

Results

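The 10 genes described here handle glutathione: the glutathione S-transferases Gsta1, Gsta3, Gsta4, Gstm1, Gstm2, Gstp1 and Gstt1, the glutamate-cysteine ligase subunits Gclc and Gclm, and the gamma-glutamyltransferase Ggt1. They are 10 of 10969 genes named on the arrays, and were represented by every probe set whose platform gene symbol is one of these names, which gave 24 of 26202 probe sets. The first array design, A, held 21 of them, B held 0, and C held 3 (Gclc, Ggt1 and Gsta4). Total RNA of kidneys from 5-week-old rats was measured on these 3 oligonucleotide designs, with 5 arrays each and 15 in all, and the arrays of each design are numbered as kidneys 1 to 5. On B and C, numbers 4 and 5 (n = 2) were congenic rats, which carry donor chromosome 10 sequence on the background of Dahl salt-sensitive rats (Dahl S). Numbers 1 to 3 (n = 3) were Dahl S itself, an inbred model of hypertension driven by dietary salt. Neither the donor strain nor the congenic interval is given in the labels. On A the descriptions call kidneys 4 and 5 Dahl S as well, in conflict with the same numbers on B and C. Their strain on A was treated as unsettled, so A compares kidney numbers and not strains. No label states that replicates came from separate animals or that a number marks 1 RNA sample on every design. The p-values therefore measure only the spread between these arrays, which may be technical, and the number of arrays limits their precision.

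Glutathione is built in 2 steps, of which the first, joining glutamate to cysteine, is made by the catalytic subunit Gclc and eased by the modifier subunit Gclm. Glutathione S-transferases attach glutathione to reactive electrophiles. Their cytosolic forms fall into classes, among them alpha (Gsta), mu (Gstm), pi (Gstp) and theta (Gstt). Ggt1, a membrane enzyme of the proximal tubule brush border, splits extracellular glutathione and its conjugates so that the amino acids can be recovered. Many of these genes are induced in rodents through the transcription factor Nrf2, which binds antioxidant response elements in their promoters and enhancers.

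The core of that element, TGACNNNGC, was searched on both strands in the 250 bases before each RefSeq gene start of rat assembly GRCr8. Promoter entries were matched for 9 of the 10 genes, and the remaining gene is Gstt1. The motif was found in 3 of the 9, Gstp1, Gclm and Gsta3 (in 1 of the windows listed for Gsta3). Counted by window, it was in 3 of the 10 windows of these genes and in 10.1% of all 33469 windows. In Gstp1 it lay on the gene's own strand, 61 to 53 bases before the start. In Gclm it lay on the opposite strand, 172 to 164 bases before the start, and reads TGACTAAGC there. Gsta3 held it 17 to 9 bases before the start. A match is a description of letters and no evidence of binding. Windows of 5 genes are shown 5′ to 3′ on the strand of the gene, with the motif in capitals. Gstp1 (chr1:210769706-210769955, minus strand) and Gclm (chr2:213031885-213032134, plus strand) are shown as the transferase and the ligase subunit with a match. Gstm1 (chr2:198343384-198343633, minus strand) and Gstm2 (chr2:198316918-198317167, minus strand) are shown as neighbouring mu-class genes whose probe sets gave different values across the kidneys, and Gsta4 (chr8:87947015-87947264, plus strand) because kidney 4 stood apart in its signal. These 3 windows hold no match.
Gstp1: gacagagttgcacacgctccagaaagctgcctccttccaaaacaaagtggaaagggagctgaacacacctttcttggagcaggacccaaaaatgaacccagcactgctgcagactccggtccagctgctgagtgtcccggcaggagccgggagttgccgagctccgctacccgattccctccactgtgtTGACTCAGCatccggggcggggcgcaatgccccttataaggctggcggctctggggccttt
Gclm: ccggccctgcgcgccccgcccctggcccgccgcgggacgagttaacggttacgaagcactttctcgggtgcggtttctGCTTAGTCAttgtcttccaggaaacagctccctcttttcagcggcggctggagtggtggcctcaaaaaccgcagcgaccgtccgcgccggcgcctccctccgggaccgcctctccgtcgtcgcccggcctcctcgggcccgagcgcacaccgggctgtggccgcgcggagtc
Gstm1: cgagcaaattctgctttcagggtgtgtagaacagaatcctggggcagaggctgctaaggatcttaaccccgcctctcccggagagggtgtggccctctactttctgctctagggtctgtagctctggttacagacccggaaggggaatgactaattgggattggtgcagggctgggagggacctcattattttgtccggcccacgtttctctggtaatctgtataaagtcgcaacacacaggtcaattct
Gstm2: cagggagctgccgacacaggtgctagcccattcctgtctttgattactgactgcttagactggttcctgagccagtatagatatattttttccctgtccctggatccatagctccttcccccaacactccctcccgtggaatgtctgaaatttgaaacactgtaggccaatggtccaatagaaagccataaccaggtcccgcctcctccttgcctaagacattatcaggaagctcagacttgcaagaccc
Gsta4: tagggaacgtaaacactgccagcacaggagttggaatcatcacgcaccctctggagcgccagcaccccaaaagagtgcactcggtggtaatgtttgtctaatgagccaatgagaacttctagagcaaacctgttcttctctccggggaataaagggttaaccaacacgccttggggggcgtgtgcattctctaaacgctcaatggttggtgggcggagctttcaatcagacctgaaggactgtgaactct

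Values are the deposited linear signal intensities, scaled so that the mean of each array without its top and bottom 2% was between 1000.6 and 1001.3. Values under a floor were raised to it before log2 was taken, and the floor was 85.1 on array A, 140.1 on array B and 153.6 on array C. Of the 24 member probe sets, 22 passed the filter on low values (a mean over the 5 arrays of at least 319.5 on A and 510.3 on C) and were tested. Both that did not were Gsta3 probe sets of array A. Markers of the kidney were present on A: all 8 proximal tubule genes on the array passed the filter, among them the phosphate carrier Slc34a1 at 51193 and 33515 in kidneys 4 and 5, against 54434, 62655 and 48780 in kidneys 1 to 3. Kidney 4 stood apart on A: it was at least 1.5-fold above each other kidney in 65 of 4411 tested probe sets and at least 1.5-fold below each in 86, against 6 to 12 above and 21 to 63 below for each of the other kidneys. The 3′ over 5′ signal ratio of the GAPDH control, a measure of RNA integrity, was 1.04 in kidneys 4 and 5 on A against 1.06 to 1.07 in kidneys 1 to 3. On C it was 1.05 in both congenic kidneys, against 1.09 to 1.11 in Dahl S kidneys. The part of these ratios in the results below was not tested. Probe sets ending in _s_at or _f_at can bind several transcripts of a family, which concerns the alpha and mu genes most. Different probe sets have their own scale, so only kidneys are compared, never genes.

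**Figure D1:**
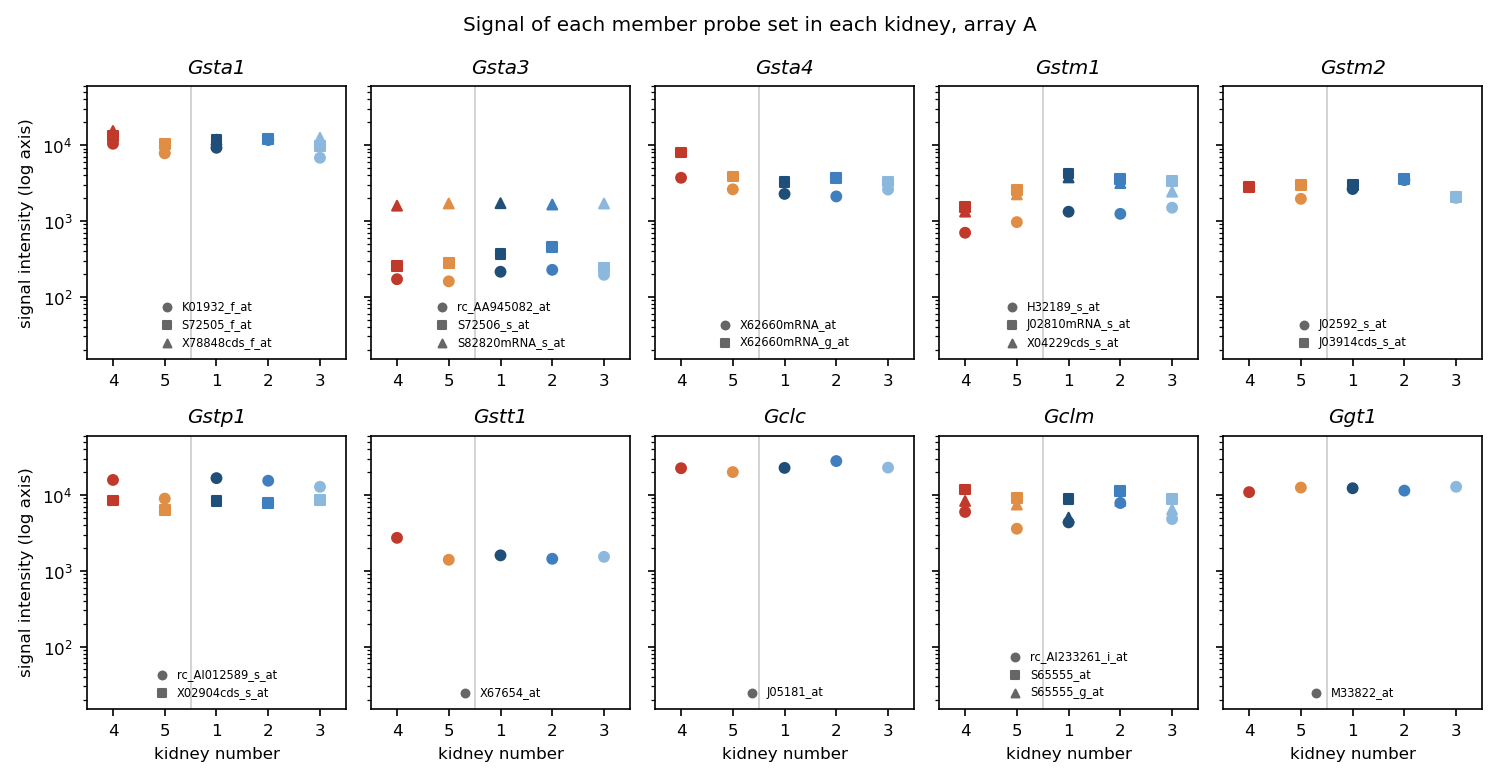
Signal intensity (log axis) of the 21 member probe sets of array A in each kidney, with kidneys 4 (red) and 5 (orange) left of the grey line and kidneys 1 to 3 (blue) right of it. Each symbol is one probe set, and heights of different probe sets are not comparable. Gstm1 lies lower in kidneys 4 and 5, while Gsta4 and Gstt1 stand out in kidney 4.

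Across the kidneys of array A, Gstm1 had lower signal and Gsta4 higher signal in kidneys 4 and 5. For Gsta4, kidney 5 was only a little above kidneys 1 to 3, and Gstt1 stood out in kidney 4 alone. The log2 differences of Gclc, Gclm and Ggt1 were at most 0.28 in size. None of these differences passed the test after adjustment. On array A, limma called 0 of 4411 probe sets (0%) at an adjusted p under 0.05, while 154 (3.49%; 1.84% higher and 1.65% lower) had an unadjusted p under 0.05. The members held 3 of those among 19 tested, the 3 Gstm1 probe sets, all lower. The groups did not overlap in 6 of the 19 member probe sets, against 19.0% of all tested probe sets. Both Gsta4 probe sets were higher in kidneys 4 and 5, as were 8.82% of all tested. The 3 Gstm1 probe sets and Gclc were lower, as were 10.1% of all tested. Probe sets of 1 gene share their transcript, so the 6 stand for 3 genes. The median log2 difference, kidneys 4 and 5 minus kidneys 1 to 3, was −0.037 over the 19 members and −0.017 over all tested. Of the members, 7 were above and 12 below 0, against 2052 above and 2359 below among all tested. On array C, 0 of 4420 probe sets (0%) were called, and 274 (6.20%; 3.17% higher and 3.03% lower) had an unadjusted p under 0.05, none of them a member. Groups did not overlap in 1 of the 3 members there, Ggt1, which was lower in congenic kidneys, against 22.4% of all tested (10.2% higher and 12.2% lower). The median log2 difference, congenic minus Dahl S, was −0.12 over these 3 (−0.014 with quantile normalization and −0.027 without kidney 5) and −0.0099 over all tested. Array B, which holds no member, had 4 calls among 4385 (0.0912%). In whole tissue, fewer cells that hold a transcript and less of it per cell cannot be told apart.

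**Figure D2:**
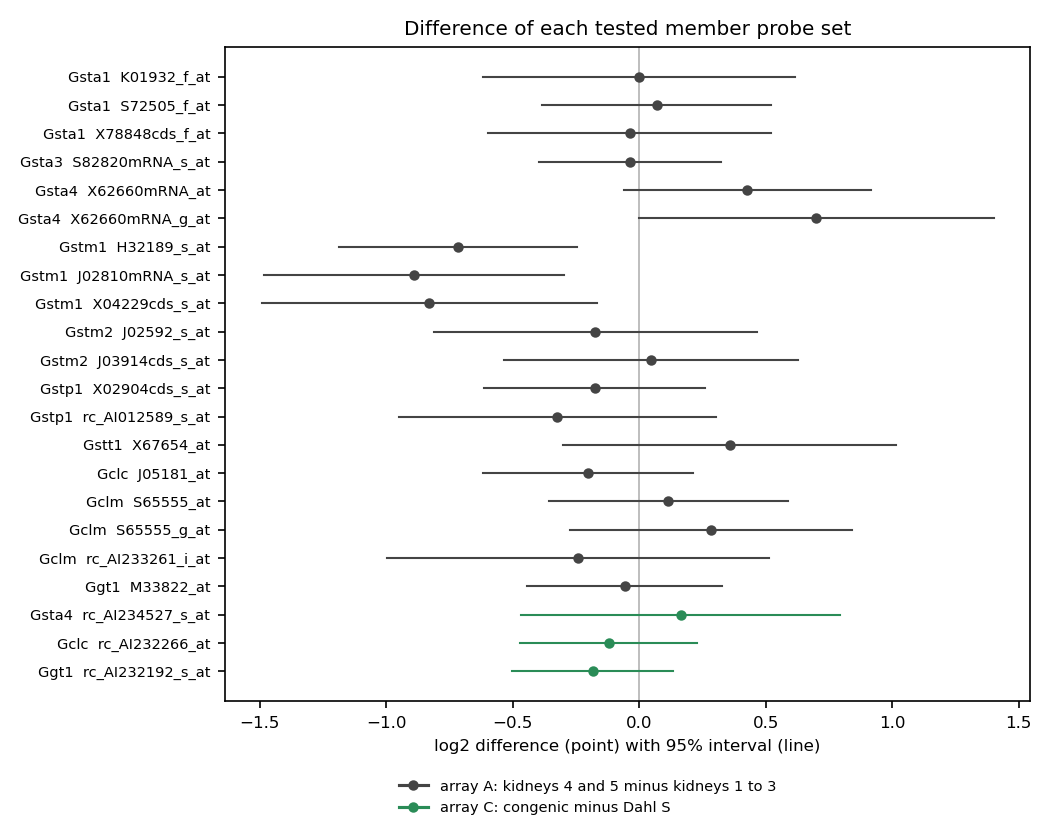
Log2 difference (points) with 95% interval (lines) of the 22 tested member probe sets. Grey marks kidneys 4 and 5 minus kidneys 1 to 3 on array A, where strain is unsettled, and green marks congenic minus Dahl S on array C. The intervals of the 3 Gstm1 probe sets lie below 0 before adjustment over all probe sets, and those of the other members include 0.

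Gclc, the catalytic subunit of the ligase, measured 22453 and 19965 in kidneys 4 and 5, against 22674, 27892 and 22866 in kidneys 1 to 3 on array A. Both values of kidneys 4 and 5 lay below the range of kidneys 1 to 3, by a small margin (log2 difference −0.20, SE 0.18, limma adjusted p = 0.999). On array C another Gclc probe set measured 50366 and 44213 in congenic kidneys 4 and 5, against 46890.4, 51412 and 56102 in Dahl S kidneys 1 to 3. The strains overlapped there, with means of 47289.7 ± 4351 in congenic (SD, n = 2) and 51468 ± 4606 in Dahl S kidneys (SD, n = 3; log2 difference −0.12, 95% interval −0.47 to 0.23, limma adjusted p = 0.911).

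Gclm, which lowers the substrate needs of the ligase, has 3 probe sets on array A, and all of them spread more over kidneys 1 to 3, on the log2 scale, than Gclc did. S65555_at measured 11760.3 and 9183 in kidneys 4 and 5, against 8848, 11348 and 8791 in kidneys 1 to 3. The companion S65555_g_at measured 8303 and 7446 in kidneys 4 and 5, against 5015, 8354 and 6425 in kidneys 1 to 3, and rc_AI233261_i_at measured 5954 and 3579 in kidneys 4 and 5, against 4337, 7806 and 4803 in kidneys 1 to 3. Kidney 2 was the highest of kidneys 1 to 3 in each, and in rc_AI233261_i_at it was 1.71 times the mean of kidneys 1 and 3. The groups overlapped in all 3 probe sets, and their log2 differences of 0.12, 0.28 and −0.24 differed in sign (limma adjusted p between 0.999 and 1).

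Ggt1 opens the breakdown of glutathione outside the cell. On array A it measured 10864 and 12468 in kidneys 4 and 5, against 12226, 11374 and 12776 in kidneys 1 to 3, a range of 1.18-fold over 5 kidneys. The groups overlapped (log2 difference −0.057, 95% interval −0.44 to 0.33, limma adjusted p = 1). On array C it measured 11134 and 10664 in congenic kidneys 4 and 5, against 11684, 12298 and 13191 in Dahl S kidneys 1 to 3. There both congenic values lay below the Dahl S values, with means of 10899 ± 333 in congenic (SD, n = 2) and 12391 ± 758 in Dahl S kidneys (SD, n = 3; log2 difference −0.18, SE 0.14, limma adjusted p = 0.865). The test was not passed, and the 95% interval was −0.50 to 0.13.

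Among the alpha-class transferases, Gsta1, a major conjugating enzyme of liver and kidney, overlapped between the groups in all 3 probe sets. Its probe set X78848cds_f_at measured 15324 and 9078 in kidneys 4 and 5, against 11782, 12092 and 12435 in kidneys 1 to 3. Kidney 4 was the highest and kidney 5 the lowest of all 5, on either side of kidneys 1 to 3, which were close together. S72505_f_at measured 13239.7 and 10308 in kidneys 4 and 5, against 11705, 12146 and 9729.5 in kidneys 1 to 3, and K01932_f_at 10399 and 7771 in kidneys 4 and 5, against 9201, 11636 and 6795 in kidneys 1 to 3. Kidney 4 exceeded kidney 5 in each of the 3, while the log2 differences of the groups lay between −0.037 and 0.068 (limma adjusted p = 1 for each).

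Gsta3, whose rat protein is a further alpha-class subunit, depended on the probe set. S82820mRNA_s_at measured 1586 and 1694 in kidneys 4 and 5, against 1710.1, 1643 and 1694 in kidneys 1 to 3, the narrowest range of all member probe sets at 1.08-fold (log2 difference −0.037, 95% interval −0.40 to 0.32, limma adjusted p = 1). S72506_s_at measured 255 and 279.5 in kidneys 4 and 5, against 364, 452 and 244 in kidneys 1 to 3, and rc_AA945082_at 170.3 and 159.7 in kidneys 4 and 5, against 213, 226 and 195 in kidneys 1 to 3. These 2 dim probe sets were not tested, and in rc_AA945082_at both values of kidneys 4 and 5 lay below those of kidneys 1 to 3.

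Gsta4, the alpha-class enzyme with high activity toward the lipid peroxidation product 4-hydroxynonenal, was highest in kidney 4 in all 3 of its probe sets. On array A, X62660mRNA_g_at measured 7945 and 3857 in kidneys 4 and 5, against 3247, 3687 and 3306 in kidneys 1 to 3. Kidney 4 was 2.06 times the next highest kidney, while kidney 5 exceeded the range of kidneys 1 to 3 by little (log2 difference 0.70, SE 0.30, limma adjusted p = 0.999). X62660mRNA_at measured 3700.2 and 2606 in kidneys 4 and 5, against 2268, 2101 and 2586 in kidneys 1 to 3, so that kidney 4 again stood above the rest and kidney 5 just above kidney 3 (log2 difference 0.43, limma adjusted p = 0.999). Without kidney 4 these differences were 0.18 and 0.17. On array C, rc_AI234527_s_at measured 3414 and 1764 in congenic kidneys 4 and 5, against 1993, 2436 and 2167 in Dahl S kidneys 1 to 3. One congenic kidney was above and the other below all Dahl S kidneys, with means of 2589 ± 1167 in congenic and 2199 ± 223 in Dahl S kidneys (log2 difference 0.16, 95% interval −0.47 to 0.79, limma adjusted p = 0.934). Without congenic kidney 4 the difference on C was −0.31, and without congenic kidney 5 it was 0.64.

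Gstm1, a mu-class transferase, had lower signal in kidneys 4 and 5 of array A in each of its 3 probe sets, none of which passed the test. J02810mRNA_s_at measured 1530 and 2581 in kidneys 4 and 5, against 4215, 3531 and 3356 in kidneys 1 to 3. X04229cds_s_at measured 1323 and 2235 in kidneys 4 and 5, against 3739.6, 3146 and 2425 in kidneys 1 to 3, and H32189_s_at 698 and 963 in kidneys 4 and 5, against 1321, 1238 and 1493 in kidneys 1 to 3. In all 3, kidney 4 was the lowest and kidney 5 the next lowest, with no overlap with kidneys 1 to 3. Mean signals of kidneys 1 to 3 were 3700.5 ± 454, 3104 ± 658 and 1351 ± 129.99 (SD, n = 3), and the log2 differences were −0.89 (SE 0.25), −0.83 (SE 0.28) and −0.72 (SE 0.20). The limma adjusted p was 0.999 for each. Without kidney 4 the differences were −0.51, −0.45 and −0.48, and without kidney 5 −1.27, −1.21 and −0.95.

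Gstm2, the mu-class gene directly next to Gstm1 in the RefSeq order of chromosome 2, did not share this pattern. J03914cds_s_at measured 2796 and 3002 in kidneys 4 and 5, against 2971, 3576 and 2074 in kidneys 1 to 3, and J02592_s_at 2786 and 1954 in kidneys 4 and 5, against 2630.1, 3445 and 2009 in kidneys 1 to 3. The values of kidneys 4 and 5 lay within or just below the range of kidneys 1 to 3, which was wide: kidney 2 was 1.42 and 1.49 times the mean of kidneys 1 and 3. The log2 differences were 0.047 (95% interval −0.53 to 0.63) and −0.17 (95% interval −0.81 to 0.47), with limma adjusted p = 1 for both. Whether the difference of Gstm1 differs from that of Gstm2 was not tested. Gstm7, a further mu-class gene of the same cluster named by the rule for related genes, measured 600.3 and 758 in kidneys 4 and 5, against 1438, 1470 and 967 in kidneys 1 to 3 and so was also lowest in kidneys 4 and 5 (log2 difference −0.91, SE 0.24, limma adjusted p = 0.999).

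Gstp1, the pi-class transferase, was lowest in kidney 5 in both of its probe sets. rc_AI012589_s_at measured 15725 and 8924 in kidneys 4 and 5, against 16616, 15361 and 12769.6 in kidneys 1 to 3. X02904cds_s_at measured 8443 and 6265 in kidneys 4 and 5, against 8291, 7841 and 8544 in kidneys 1 to 3. Kidney 4 lay within the range of kidneys 1 to 3 in both, so the groups overlapped. The log2 differences were −0.32 and −0.18 (limma adjusted p = 0.999 and 1), and without kidney 5 they were 0.085 and 0.039.

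Gstt1, a theta-class transferase that acts on small halogenated compounds, measured 2713 and 1394 in kidneys 4 and 5, against 1595, 1437 and 1524 in kidneys 1 to 3 on array A. Kidney 4 was 1.70 times the next highest kidney, and kidney 5 was the lowest of the 5. The groups therefore overlapped (log2 difference 0.36, SE 0.28, limma adjusted p = 0.999), and without kidney 4 the difference was −0.12.

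Because Gstt1 turned on 1 kidney, the other theta-class genes were set beside it. Gstt2, Gstt1 and Gstt3 lie within a short stretch of chromosome 20 in RefSeq, with no gene between Gstt1 and Gstt3. Gstt2 has 2 probe sets on array A. rc_AI138143_at measured 112 and 3165 in kidneys 4 and 5, against 3395, 3334 and 3931 in kidneys 1 to 3, so that kidney 4 was near the floor of 85.1 and the lowest of the other 4 kidneys was 28.2 times as high. Its log2 difference of −2.57 had an SE of 1.18 (limma adjusted p = 0.999). D10026_s_at, the second probe set of the gene, measured 1781 and 1494 in kidneys 4 and 5, against 1795, 2106 and 1784 in kidneys 1 to 3, with kidney 4 close to kidneys 1 and 3. The 2 probe sets of Gstt2 thus disagreed about kidney 4 by more than their spread elsewhere, and the 112 is the signal of 1 of them. Which of the 2 follows the level of Gstt2 in kidney 4 was not tested. Gstt3 was named on array B by the rule for related genes and on array C after its values were seen. It measured 55509 and 37394 in congenic kidneys 4 and 5, against 39455, 39181 and 38625 in Dahl S kidneys 1 to 3 on B and 20107 and 10115 in congenic kidneys 4 and 5, against 11186, 12553 and 11725 in Dahl S kidneys 1 to 3 on C. Kidney 4 was the highest in both, at 1.41 and 1.60 times the next kidney, and kidney 5 the lowest (limma adjusted p = 0.998 on B and 0.887 on C). These single-kidney contrasts were chosen after the values were seen and carry no test.

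**Figure D3:**
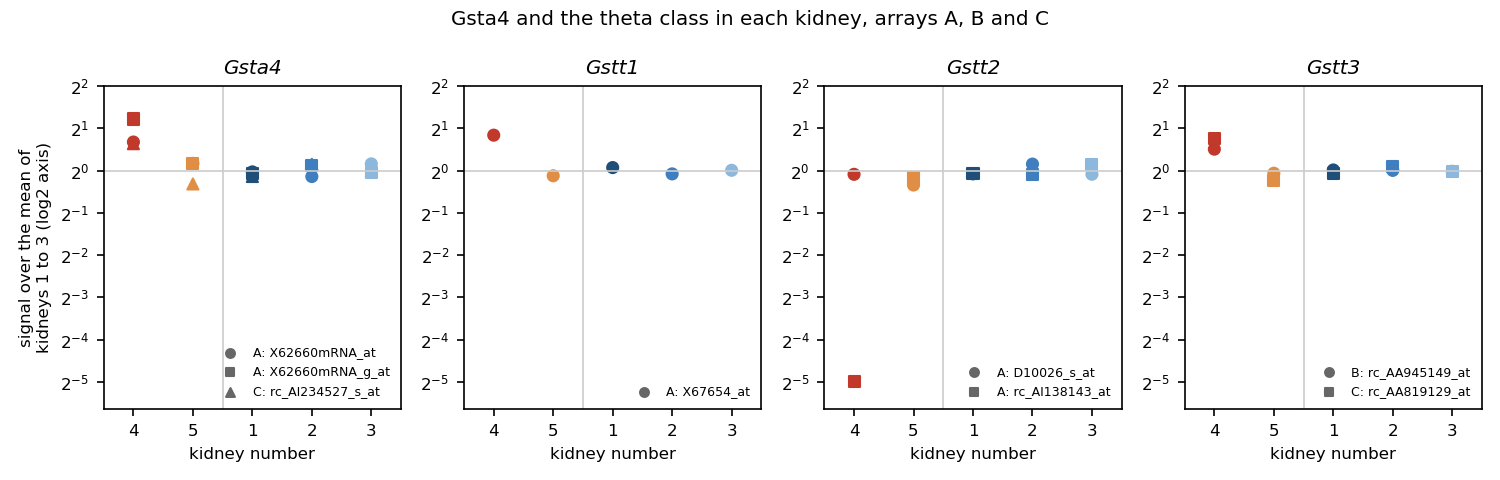
Signal over the mean of kidneys 1 to 3 (log2 axis) for Gsta4 and the theta-class genes Gstt1, Gstt2 and Gstt3, by kidney number, with kidneys 4 (red) and 5 (orange) left of the grey line and Dahl S kidneys 1 to 3 (blue) right of it. Symbols are probe sets with their array design. Kidney 4 lies above the rest for Gsta4, Gstt1 and Gstt3, and far below them in 1 of the 2 Gstt2 probe sets.

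Marker genes were set beside kidney 4. On A the summed signal of the 7 liver markers was 3938 in kidney 4 and 1545 in kidney 5, against 986 to 1271 in kidneys 1 to 3. Most of the excess of kidney 4 came from Cyp2c11, a cytochrome P450 known from the liver of male rats, at 2900.4 and 381 in kidneys 4 and 5, against 62.3, 83.2 and 78.4 in kidneys 1 to 3. Apoh, a plasma protein made in liver, was under the filter on A and above the floor in kidney 4 alone, at 195 and 75.3 in kidneys 4 and 5, against 14.8, 14.9 and 16.2 in kidneys 1 to 3. On C it passed the filter and measured 829 and 670.5 in congenic kidneys 4 and 5, against 518, 503 and 601 in Dahl S kidneys 1 to 3, without overlap (log2 difference 0.47, limma adjusted p = 0.775). Serpina1, which passed the filter on A, measured 454 and 477 in kidneys 4 and 5, against 436, 594 and 348.5 in kidneys 1 to 3. The groups overlapped in it (log2 difference 0.053). Alb, Ahsg, Apoa1 and Fgb were also under the filter on A, Alb at 111 and 139 in kidneys 4 and 5, against 162, 181 and 146 in kidneys 1 to 3. Fgb was at 6.4 and 134, against 130, 99.9 and 107, Ahsg at 82.3 and 150, against 51.4, 110 and 166, and Apoa1 at 189 and 190, against 142, 188 and 124. The proximal tubule markers, 8 of 10 on A, summed to 105689.5 and 80761 in kidneys 4 and 5, against 99793 to 117365 in kidneys 1 to 3. Most of the gap of kidney 5 came from Slc34a1: without it the sums were 54497 and 47245 in kidneys 4 and 5, against 48081 to 54709.7 in kidneys 1 to 3. The 5 tested Slc34a1 probe sets disagreed in sign, with log2 differences from −0.41 (rc_AI105198_i_at) to 0.34 (AB013453_at, without overlap), and Cubn was highest in kidney 5. Of the 8 summed probe sets, only that of Slc5a1 did not overlap between the groups. It measured 2178 and 1919 in kidneys 4 and 5, against 1487, 1494 and 1719 in kidneys 1 to 3 (log2 difference 0.39, limma adjusted p = 0.999). The collecting duct markers, 6 of 7 on A, summed to 27886 and 24921 in kidneys 4 and 5, against 21791 to 24875 in kidneys 1 to 3. Of these 6, Aqp2, Aqp3 and Avpr2 did not overlap between the groups, each higher in kidneys 4 and 5, as were 8.82% of all tested. Hsd11b2, Slc4a1 and Scnn1g overlapped, with log2 differences of 0.031, 0.16 and −0.089. The glomerulus markers, 3 of 6 on A, summed to 1098 and 1106 in kidneys 4 and 5, against 930 to 1120 in kidneys 1 to 3. Both proximal tubule markers on C, Slc7a13 and Slc22a8, were highest in kidney 4. Slc7a13 measured 16372 and 11670 in congenic kidneys 4 and 5, against 11487.5, 15843.5 and 11578 in Dahl S kidneys 1 to 3. Slc22a8 measured 10592 and 7381 in congenic kidneys 4 and 5, against 8621, 10125 and 7448 in Dahl S kidneys 1 to 3. Calb1, a distal tubule marker, was highest in kidney 5 on C. On B and C the podocyte gene Podxl was highest in kidney 4, as Gstt3 was on both designs and Gsta4 on C. It measured 5106 and 3188 in congenic kidneys 4 and 5, against 2469, 2551 and 3010.4 in Dahl S kidneys 1 to 3 on B (limma adjusted p = 0.998). On C it measured 1887 and 1246 in congenic kidneys 4 and 5, against 1156, 1327 and 777 in Dahl S kidneys 1 to 3 (limma adjusted p = 0.825). The glomerulus marker Wt1, under the filter on B, measured 364 and 186 in congenic kidneys 4 and 5, against 221.5, 237 and 229 in Dahl S kidneys 1 to 3. Pdgfrb on C measured 1078 and 919 in congenic kidneys 4 and 5, against 944, 962 and 1053 in Dahl S kidneys 1 to 3 (log2 difference 0.015). The part of these markers in the transferase values was not tested.

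Kidney 4 accounted for the member probe sets in which 1 kidney stood alone. On A it was at least 1.5-fold above each other kidney in 2 of 19 member probe sets, Gsta4 X62660mRNA_g_at and Gstt1, against 1.47% of all tested. It was at least 1.5-fold below each other kidney in 2, both of Gstm1, against 1.95% of all tested. No other kidney met either condition in a member. Over kidneys 1 to 3 alone, the median SD of log2 signal was 0.17 for the members and 0.19 for all tested probe sets of A. Over all 5 kidneys the medians were 0.31 for the members and 0.21 for all tested. On C the medians over the Dahl S kidneys were 0.13 for the 3 members and 0.16 for all tested, and over all 5 kidneys 0.13 for the members and 0.18 for all tested, so that the order over all 5 kidneys was the opposite of that on A.

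Gclc, Ggt1 and Gsta4 could be followed by kidney number on both A and C, which were scaled separately. For Gsta4 the signal of kidney 4 over the mean of kidneys 1 to 3 was 1.60 and 2.33 on A and 1.55 on C. Kidney 5 was at 1.12 and 1.13 on A and 0.802 on C, on opposite sides of the mean. For Gclc these ratios were 0.917 and 0.816 in kidneys 4 and 5 on A, and 0.979 and 0.859 on C. The highest Gclc kidney was number 2 on A and number 3 on C. For Ggt1 kidney 4 was at 0.896 on A and 0.899 on C, whereas kidney 5 was at 1.03 on A and 0.861 on C.

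**Figure D4:**
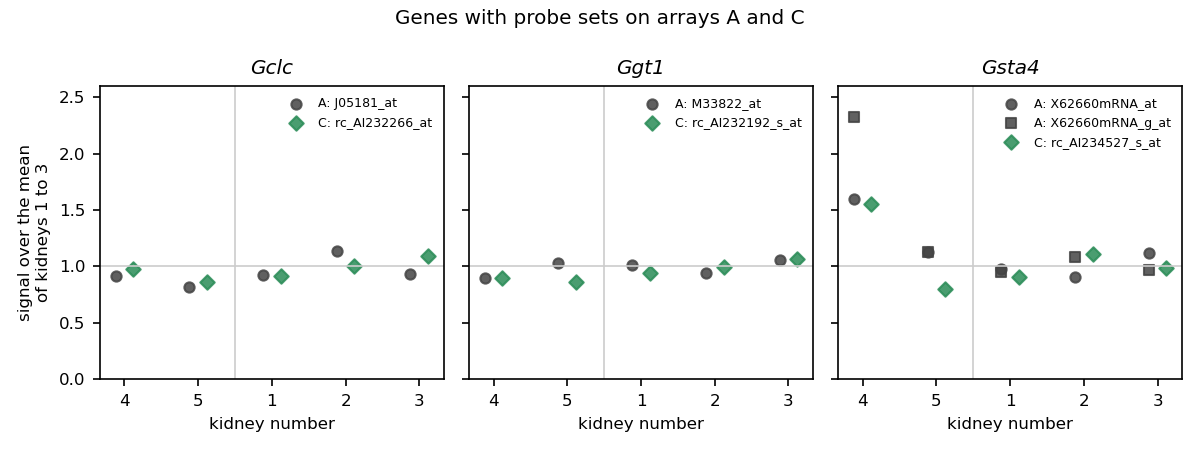
Signal over the mean of kidneys 1 to 3 for Gclc, Ggt1 and Gsta4 on array A (grey) and array C (green), by kidney number, with kidneys 4 and 5 left of the grey line and kidneys 1 to 3 right of it. Gsta4 lies between 1.55 and 2.33 in kidney 4 on both designs, while Gclc and Ggt1 lie between 0.816 and 1.03 in kidneys 4 and 5.

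Further genes of the pathway were taken from 5 lists, and none of their probe sets passed the limma test on any design. The 2 probe sets with the smallest p of each list and design are given. For comparison, the median log2 difference of all tested probe sets was −0.017 on A, −0.0052 on B and −0.0099 on C. Without overlap of the groups, 389 of all 4411 tested probe sets were higher and 447 lower on A. On B 339 of 4385 were higher and 414 lower, and on C 452 of 4420 were higher and 540 lower. Of other transferases, 4 of 10 tested probe sets on A (median −0.17), 2 of 3 on B (median 0.020) and 2 of 5 on C (median −0.048) had a positive difference. Besides Gstm7, Gstt2 and Gstt3, described above, these were Gstm5 on B at 11405 and 9860.3 in congenic kidneys 4 and 5, against 10622, 12026 and 10406 in Dahl S kidneys 1 to 3, and on C Gstm4 at 1039 and 991 in congenic kidneys 4 and 5, against 1186, 969.6 and 1473 in Dahl S kidneys 1 to 3. Gstz1, the zeta-class enzyme of tyrosine breakdown, measured 559.7 and 546 in congenic kidneys 4 and 5, against 569.6, 642 and 626 in Dahl S kidneys 1 to 3 on C. The groups overlapped in Gstm5 and Gstm4, and both congenic values were below the others in this Gstz1 probe set. The second Gstz1 probe set on C, rc_AI169075_at, went the other way, at 4292 and 4495 in congenic kidneys 4 and 5, against 3644, 4184 and 4169.7 in Dahl S kidneys 1 to 3.

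Of genes of synthesis, breakdown and precursor supply, 15 of 23 probe sets on A (median 0.046), 3 of 3 on B (median 0.096) and 2 of 5 on C (median −0.013) had a positive difference. Slc1a1, a carrier of glutamate and cysteine, measured 4349.5 and 4699.6 in kidneys 4 and 5, against 3286, 3678 and 3637 in kidneys 1 to 3. The glutathione synthetase Gss, which adds glycine to complete glutathione, measured 7099 and 6728 in kidneys 4 and 5, against 5737, 5397 and 5227 in kidneys 1 to 3. Both were higher in kidneys 4 and 5 without overlap (log2 differences 0.36 and 0.34, limma adjusted p = 0.999 each). Of the 23 probe sets of this list on A, 3 were higher and 2 lower without overlap. The glutathione reductase probe set Gsr U73174_g_at was among the lower (log2 difference −0.36, limma adjusted p = 0.999). On B the aminoacylase Acy3, which acts on mercapturic acids, measured 34275 and 35741 in congenic kidneys 4 and 5, against 30439, 31082 and 27137 in Dahl S kidneys 1 to 3, also without overlap (limma adjusted p = 0.998). The leucine aminopeptidase Lap3 measured 2282 and 1997 in congenic kidneys 4 and 5, against 1694, 2202 and 2137 in Dahl S kidneys 1 to 3. On C the glutathione reductase Gsr measured 6300.4 and 5375 in congenic kidneys 4 and 5, against 6258, 6706 and 6020.2 in Dahl S kidneys 1 to 3. Chac1, which degrades glutathione inside the cell, measured 478 and 459 in congenic kidneys 4 and 5, against 322, 916 and 627 in Dahl S kidneys 1 to 3. Lap3, Gsr and Chac1 overlapped.

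Of enzymes that use glutathione, 6 of 12 probe sets on A (median −0.017), 1 of 2 on B (median −0.024) and 2 of 7 on C (median −0.036) had a positive difference. The extracellular peroxidase Gpx3, made in the proximal tubule, measured 27131 and 13168 in kidneys 4 and 5, against 15929.5, 14846 and 12232 in kidneys 1 to 3, with kidney 4 again above the rest. The glyoxalase Hagh measured 4124 and 3649.8 in kidneys 4 and 5, against 3323, 2692 and 3465 in kidneys 1 to 3, without overlap. On C, without overlap and lower in congenic kidneys, the glutaredoxin Glrx3 measured 1529.7 and 1299 in congenic kidneys 4 and 5, against 1758, 1620 and 1759 in Dahl S kidneys 1 to 3. The glyoxalase Glo1 measured 2309.5 and 2768 in congenic kidneys 4 and 5, against 2858, 2888 and 2922 in Dahl S kidneys 1 to 3, likewise. On B the esterase Esd measured 4986 and 5478 in congenic kidneys 4 and 5, against 5279, 5743 and 5606 in Dahl S kidneys 1 to 3 by rc_AA899045_at and 4128 and 3882 in congenic kidneys 4 and 5, against 3732, 4119 and 3870.5 in Dahl S kidneys 1 to 3 by rc_AA899045_g_at, both with overlap.

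Of other genes of the Nrf2 system, 10 of 16 probe sets on A (median 0.056), 2 of 5 on B (median −0.017) and 0 of 5 on C (median −0.13) had a positive difference. Malic enzyme Me1, a source of NADPH, measured 1841 and 1549 in kidneys 4 and 5, against 1222, 1232 and 1137 in kidneys 1 to 3 by rc_AI008020_at and 1953 and 1354 in kidneys 4 and 5, against 992, 1552 and 935 in kidneys 1 to 3 by M26594_at (log2 differences 0.50 and 0.53, limma adjusted p = 0.999 each). The small Maf protein Mafg, a partner of Nrf2, measured 1306 and 1352 in congenic kidneys 4 and 5, against 1484, 1478 and 1631 in Dahl S kidneys 1 to 3 on B and 2063 and 1641 in congenic kidneys 4 and 5, against 2184, 2755 and 2566 in Dahl S kidneys 1 to 3 on C. The congenic values lay below the Dahl S values on both designs (log2 differences −0.20 and −0.44, limma adjusted p = 0.998 and 0.775). Mafg lies on chromosome 10, and because the congenic interval is not given, whether the interval holds Mafg cannot be told. Keap1, which marks Nrf2 for degradation, measured 1383 and 1334 in congenic kidneys 4 and 5, against 1265, 1208 and 1340.5 in Dahl S kidneys 1 to 3 on B, with overlap. The peroxiredoxin Prdx1 measured 733 and 679.6 in congenic kidneys 4 and 5, against 771, 851 and 800.5 in Dahl S kidneys 1 to 3 on C, without overlap.

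Of conjugate exporters and mitochondrial carriers, 5 of 8 probe sets on A (median 0.039), 1 of 2 on B (median −0.096) and 3 of 3 on C (median 0.049) had a positive difference. On A, without overlap in either, Slc25a11 measured 2117 and 2137 in kidneys 4 and 5, against 1648, 1767 and 1842 in kidneys 1 to 3, and Slc25a10 3161 and 2556 in kidneys 4 and 5, against 3701, 3706 and 3205 in kidneys 1 to 3. Slc25a11 was the higher in kidneys 4 and 5 and Slc25a10 the lower. The mitochondrial glutathione importer Slc25a39 measured 577 and 476 in congenic kidneys 4 and 5, against 465, 678 and 699 in Dahl S kidneys 1 to 3 by rc_AA956111_at and 21322 and 20611 in congenic kidneys 4 and 5, against 21028, 20479 and 20873 in Dahl S kidneys 1 to 3 by rc_AA926365_at on B, with overlap. On C the exporter Abcc5 measured 1105 and 965 in congenic kidneys 4 and 5, against 702, 754 and 772 in Dahl S kidneys 1 to 3, without overlap (log2 difference 0.48, limma adjusted p = 0.775), and the related exporter Abcc4 987 and 576 in congenic kidneys 4 and 5, against 737, 638 and 822 in Dahl S kidneys 1 to 3, with overlap.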

How the data were processed

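Gene expression was measured in 15 arrays of 3 designs, 5 per design. Each deposited value is a linear intensity of 1 probe set, as the authors scaled it. Their software is not given in the sources used here, nor is any background step. Each design was processed alone: the deposited scale was kept, values were raised to the 25th percentile of the design and taken to log2, and probe sets with a mean of at least the median of all values were tested, leaving out 59 control probe sets per design. Symbols came from the platform annotation, updated by gene identifier to RefSeq GRCr8. One symbol was given for 7006, 5351 and 5821 probe sets of A, B and C, several for 308, 38 and 45, and none for 1426, 3343 and 2864. Identifiers of 6985, 5333 and 5804 of those with 1 symbol were matched. Differences were fitted in R 4.3.3 by limma 3.58.1 (lmFit, then eBayes), with Benjamini-Hochberg adjustment over all tested probe sets and a threshold of 0.05. On A kidneys were grouped by number, on B and C by strain. The fit was tested on simulated data. Every member probe set was described. Of the other lists, the 2 probe sets with the smallest p on each design were named. The members and lists were chosen with earlier results of these data known.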

Additional observations from a re-analysis of the deposited data

How the results depend on the processing

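Alternatives to the processing numbered 14 per design, 5 of which left out 1 kidney each, and no member passed the limma threshold in any of them (smallest adjusted p 0.114, for Gsta4 without kidney 5). Of the 22 tested member probe sets, 9 kept the sign of their difference throughout, among them the 3 of Gstm1, both of Gsta4 on A and Gclc on both designs. Their sizes moved: Gclc on C was −0.12 with the main processing, −0.014 with quantile normalization and −0.22 to −0.027 without 1 kidney, Gclc on A −0.29 to −0.10 and Gclm S65555_g_at 0.10 to 0.47 without 1 kidney. On A the number of calls was 2 without a filter on low values, and 0 to 25 without 1 kidney, the 25 arising without kidney 5. On B it was 1 with quantile normalization, median scaling, a floor at the 10th or 40th percentile, a filter at the 75th percentile or array weights, and 0 to 31 without 1 kidney (31 without kidney 5, 0 without any other). On C it was 2 without a filter, 1 with an intensity trend, and 0 to 35 without 1 kidney (35 without kidney 5). The median log2 difference of the members on A was −0.25 to 0.084 without 1 kidney (−0.25 without kidney 4, −0.16 without kidney 3 and 0.084 without kidney 5), against −0.037 with all 5. On C the median of the 3 members is that of Gclc in the main processing, and was −0.014 with quantile normalization, −0.027 without kidney 5, −0.057 without kidney 3, −0.19 without kidney 1 and −0.22 without kidney 4. Sign changes of members near 0 were 0.0061 for Gsta1 X78848cds_f_at with quantile normalization, 0.068 for Gsta1 K01932_f_at, 0.031 for Gsta1 X78848cds_f_at, 0.031 for Gsta3 and 0.011 for Ggt1 with median scaling, and −0.023 for Gstm2 J03914cds_s_at with array weights. Without 1 kidney on A, differences ranged over −0.21 to 0.21, −0.11 to 0.25 and −0.41 to 0.34 for Gsta1 K01932_f_at, S72505_f_at and X78848cds_f_at, −0.084 to 0.011 for Gsta3, −0.43 to 0.083 and −0.17 to 0.22 for Gstm2 J02592_s_at and J03914cds_s_at, −0.73 to 0.085 and −0.39 to 0.039 for Gstp1 rc_AI012589_s_at and X02904cds_s_at, −0.12 to 0.84 for Gstt1, −0.063 to 0.29 and −0.61 to 0.13 for Gclm S65555_at and rc_AI233261_i_at, and −0.16 to 0.042 for Ggt1. On C that of Gsta4 ranged over −0.31 to 0.64. Without kidney 4 or 5, the lone array left is assumed to vary like kidneys 1 to 3. The cause of these changes was not tested, and each fit without 1 kidney also had fewer arrays. No paired analysis was possible because the groups compared share no kidney number. Gsta3 rc_AA945082_at and S72506_s_at had a mean signal under the filter and were not tested.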

Other observations

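Transferases outside the 10 genes gave further values. On A, 2 probe sets carry both the Gsta5 and the Gsta2 symbol, alpha-class genes with 1 gene between them in RefSeq, and are given by identifier. K00136mRNA_at measured 3549.8 and 7928 in kidneys 4 and 5, against 7796, 7447 and 5556 in kidneys 1 to 3, and rc_AI235747_at 2145 and 1955 in kidneys 4 and 5, against 1391, 1676 and 1308 in kidneys 1 to 3, so that kidney 4 was the lowest in one and the highest in the other. The membrane-bound transferases Mgst1, Mgst2 and Mgst3 measured 8958 and 7099 in kidneys 4 and 5, against 10049, 8375 and 8709 in kidneys 1 to 3, 800 and 1157 in kidneys 4 and 5, against 1168, 1076 and 1274 in kidneys 1 to 3, and 11568 and 8098 in kidneys 4 and 5, against 12629, 11122 and 9035 in kidneys 1 to 3, with overlap of the groups in each. The mitochondrial and peroxisomal Gstk1 was highest in kidney 4 in both probe sets, at 5136 and 2468 in kidneys 4 and 5, against 3915, 3144 and 3087 in kidneys 1 to 3 for S83436_i_at and 1520.2 and 969.5 in kidneys 4 and 5, against 1202, 1272 and 737 in kidneys 1 to 3 for rc_AI105137_s_at. Gsto1 on array C measured 6039.9 and 5179.5 in congenic kidneys 4 and 5, against 5906, 6304 and 5192 in Dahl S kidneys 1 to 3. These probe sets were named after their values were seen, and none passed the limma test.

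On the other designs kidney 4 stood above the rest more often than any other kidney, but not below them on C. It was at least 1.5-fold above each other kidney in 29 of 4385 tested probe sets on B (0.661%) and in 49 of 4420 on C (1.11%), where the other kidneys ranged from 2 to 20 and from 2 to 15. It was at least 1.5-fold below each in 82 on B (1.87%), against 27 to 62 for the other kidneys. On C it was below each in 58 (1.31%), fewer than the 86 (1.95%) of Dahl S kidney 3. Of the member and theta-class probe sets on B and C, kidney 4 was at least 1.5-fold above each other kidney in Gstt3 on C.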
